A study of Rattus norvegicus with 12 samples.

Results

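The genes described here encode the extracellular matrix of muscle: fibrillar and fibril-associated collagens, basement membrane proteins, elastic fibre proteins, proteoglycans, matricellular glycoproteins, matrix proteases with their inhibitors, and enzymes that fold or cross-link collagen. A list of 52 genes was matched by platform gene symbol to the table of detected probe sets, and each gene was represented by its probe set with the highest mean. Of the 52 listed genes, 40 had a detected probe set of that symbol, among 18957 detected probe sets in all. The other 12 were Col6a1, Col6a2, Col6a3, Col4a2, Col15a1, Lama2, Lama4, Lamb1, Nid1, Hspg2, Tnc and Thbs2, and no platform-named value was used for them. Collagen VI was therefore not analysed here, and collagen IV, laminin and nidogen were each covered only in part.

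Expression was measured on Affymetrix arrays in skeletal muscle taken from the hind legs of newborn Wistar rats, all male, whose dams had been given 1 of 3 diets from day 1 of pregnancy: a control diet, a diet low in protein, or the low protein diet with 2% w/v taurine in the drinking water. Taurine is a sulphur-containing amino acid derivative that is abundant in muscle. Each array held RNA pooled from 3 brothers of 1 litter, so the dam was the replicate, with 4 dams per diet and 12 arrays in all. Pooling hides the spread between littermates, and sexes were not compared because the pups were all male.

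Muscle fibres lie in a mesh of matrix that is made mostly by fibroblasts of the connective tissue between them. Fibrillar collagens carry tension, a basement membrane of laminin, collagen IV and nidogen wraps each fibre, and fibrillin microfibrils carry elastin and the fibulins. Secreted and membrane-bound proteases cut these proteins, TIMPs inhibit the proteases, and lysyl oxidases cross-link collagen and elastin.

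The tissue label was checked with 11 muscle fibre markers, whose mean log2 level lay between 12.14 and 12.39 in the control arrays, 12.21 and 12.37 with low protein, and 12.27 and 12.51 with added taurine. Array medians lay between 7.66 and 7.67 in the controls and between 7.71 and 7.75 in the other arrays. The mean of 11 hepatocyte markers was 10.85 in control 3 and 11.78 in control 4, reached down to 6.66 in the other control arrays, and lay between 6.75 and 8.26 on the 8 low protein and taurine arrays. Control 3 and control 4 thus stood apart. Counts of calls over the 40 genes are given below both with and without them. Counts by role, by pathway list and by marker list are given only with all controls. Differences of single genes also use all controls unless stated. Control 4 was also low in matrix genes: 3 of the 40 lay above their control mean there, against 21 in control 3, 30 in control 1 and 32 in control 2. The median matrix gene in control 4 was -0.12 from the control mean, and the median probe set -0.04. Fibronectin (Fn1), which liver also makes, went the other way, with 12.21 in control 4 and 11.93 in control 3 against 11.74 and 11.68 in controls 1 and 2. Tgfbi did so too, with 9.78 in control 4 and 9.65 in control 3 against 9.43 and 9.31 in controls 1 and 2. The part of the hepatocyte signal in the results was not tested.

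Most of the measured matrix genes were bright: 36 of 40 lay among the brightest 20% of the table by mean level and 39 above its median. For that reason counts are set beside all probe sets and beside the 2686 of the brightest 20% that have 1 gene symbol, called the bright probe sets below. The map of all matrix genes by array shows the general direction of the data before any test.

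**Figure D1:**
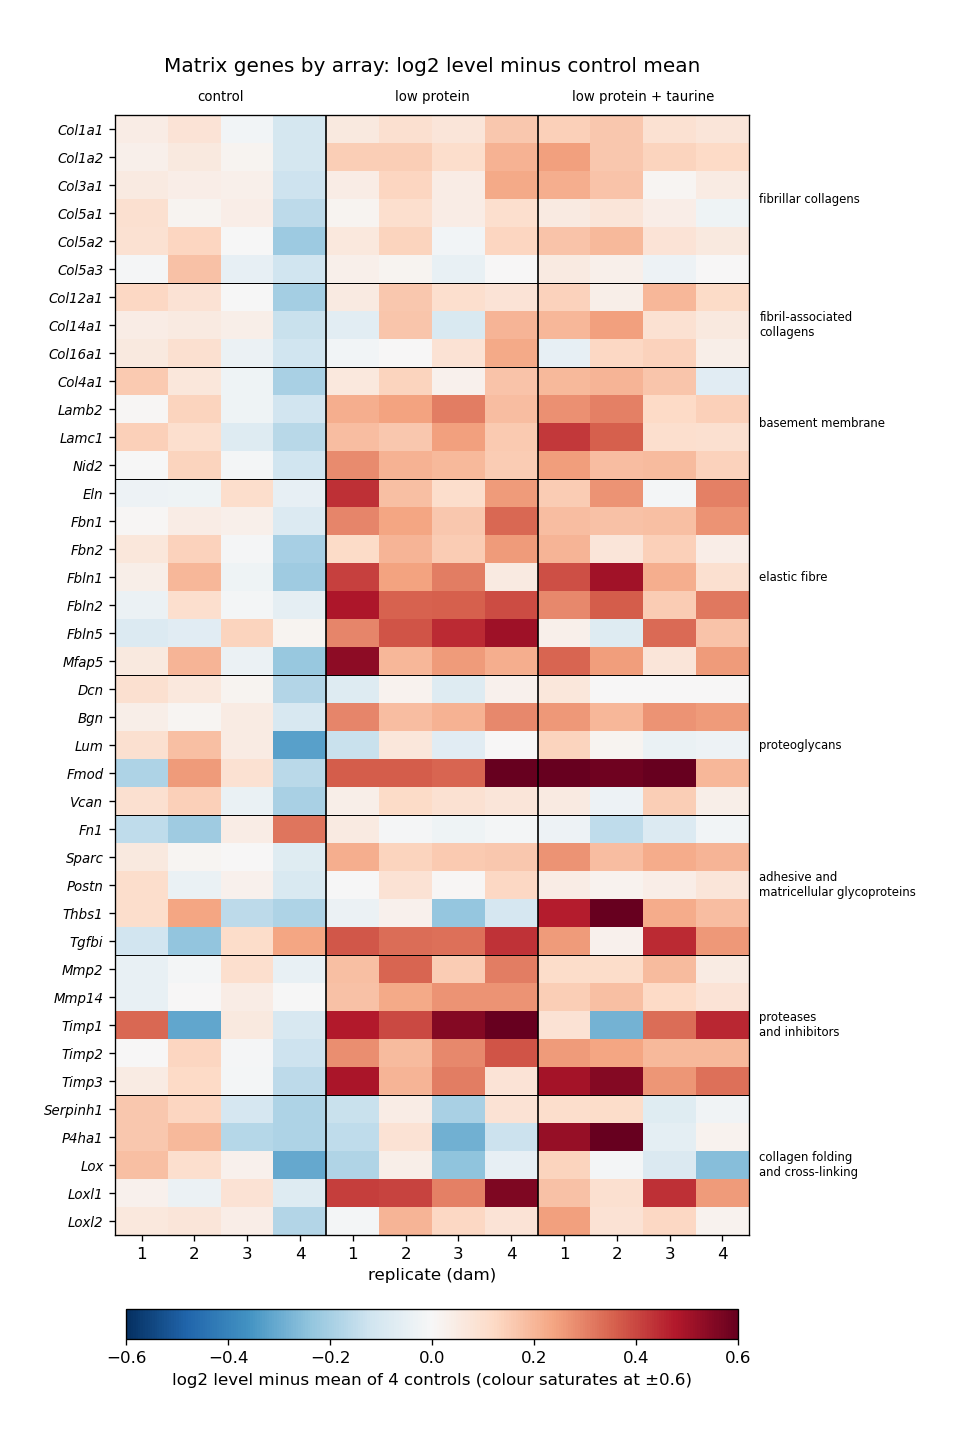
Log2 level minus the control mean for the 40 matrix genes (rows, ordered by role) on the 12 arrays (columns, 4 per diet); colour gives the difference on the log2 scale. Control 4 is below the control mean for all but 3 genes, and the columns of both low protein groups are mostly above it.

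With the low protein diet, matrix genes were mainly higher and none fell. Of the 40 genes 18 rose and 0 fell (limma, adjusted p under 0.05 over all 18957 probe sets), where 21.8% of all probe sets rose and 11.9% fell, and 30% of the bright probe sets and 35.8% of probe sets with 1 symbol above the median level rose. Falls were rare at such levels, at 0.372% of the bright probe sets and 0.728% of those with 1 symbol above the median level. The absence of falls is thus near that background. The rises were small, from 0.15 to 0.52 on the log2 scale. They were most complete among proteases and their inhibitors, with 5 of 5, and among elastic fibre proteins, with 5 of 7. Basement membrane proteins rose in 2 of 4, proteoglycans in 2 of 5, matricellular glycoproteins in 2 of 5, folding and cross-linking enzymes in 1 of 5, fibrillar collagens in 1 of 6, and fibril-associated collagens in 0 of 3. In 17 of the 40 genes all 4 low protein arrays lay above all 4 control arrays, as did 22.2% of all probe sets and 32.6% of the bright ones. The median difference over the 40 genes was 0.16 (range -0.12 to 0.52), against 0.07 over all probe sets, 0.12 over the bright ones and 0.15 over probe sets with 1 symbol above the median level. The median thus lay close to that of other probe sets of like level, and the share that rose, 45%, lay above theirs of 30% and 35.8%. Without control 3 and control 4 the median was 0.09, below the 0.13 of probe sets with 1 symbol above the median level, and 22.5% of the 40 genes rose against 17.1% of those. No test was made of the list.

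With low protein plus taurine, 10 of the 40 genes rose and 0 fell (limma, adjusted p under 0.05), where 10.2% of all probe sets rose and 3.6% fell, and 15.8% of the bright probe sets and 17.3% of probe sets with 1 symbol above the median level rose. Of the bright probe sets 0.0745% fell, and of those with 1 symbol above the median level 0.273%, so the absence of falls is near that background. The genes that passed were Bgn, Sparc, Fbln2, Timp3, Fmod, Fbn1, Timp2, Lamb2, Nid2 and Thbs1, with differences from 0.19 to 0.62. By role these were 0 of 6 fibrillar collagens, 0 of 3 fibril-associated collagens, 2 of 4 basement membrane proteins, 2 of 7 elastic fibre proteins, 2 of 5 proteoglycans, 2 of 5 glycoproteins, 2 of 5 proteases and inhibitors, and 0 of 5 folding and cross-linking enzymes. In 11 genes the arrays did not overlap with the controls and were higher, against 14.2% of all probe sets and 22.7% of the bright ones. The median difference was 0.14, against 0.06 over all probe sets and 0.12 over the bright ones. Both comparisons use the same 4 control arrays, so their values are given side by side and are not independent of each other.

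**Figure D2:**
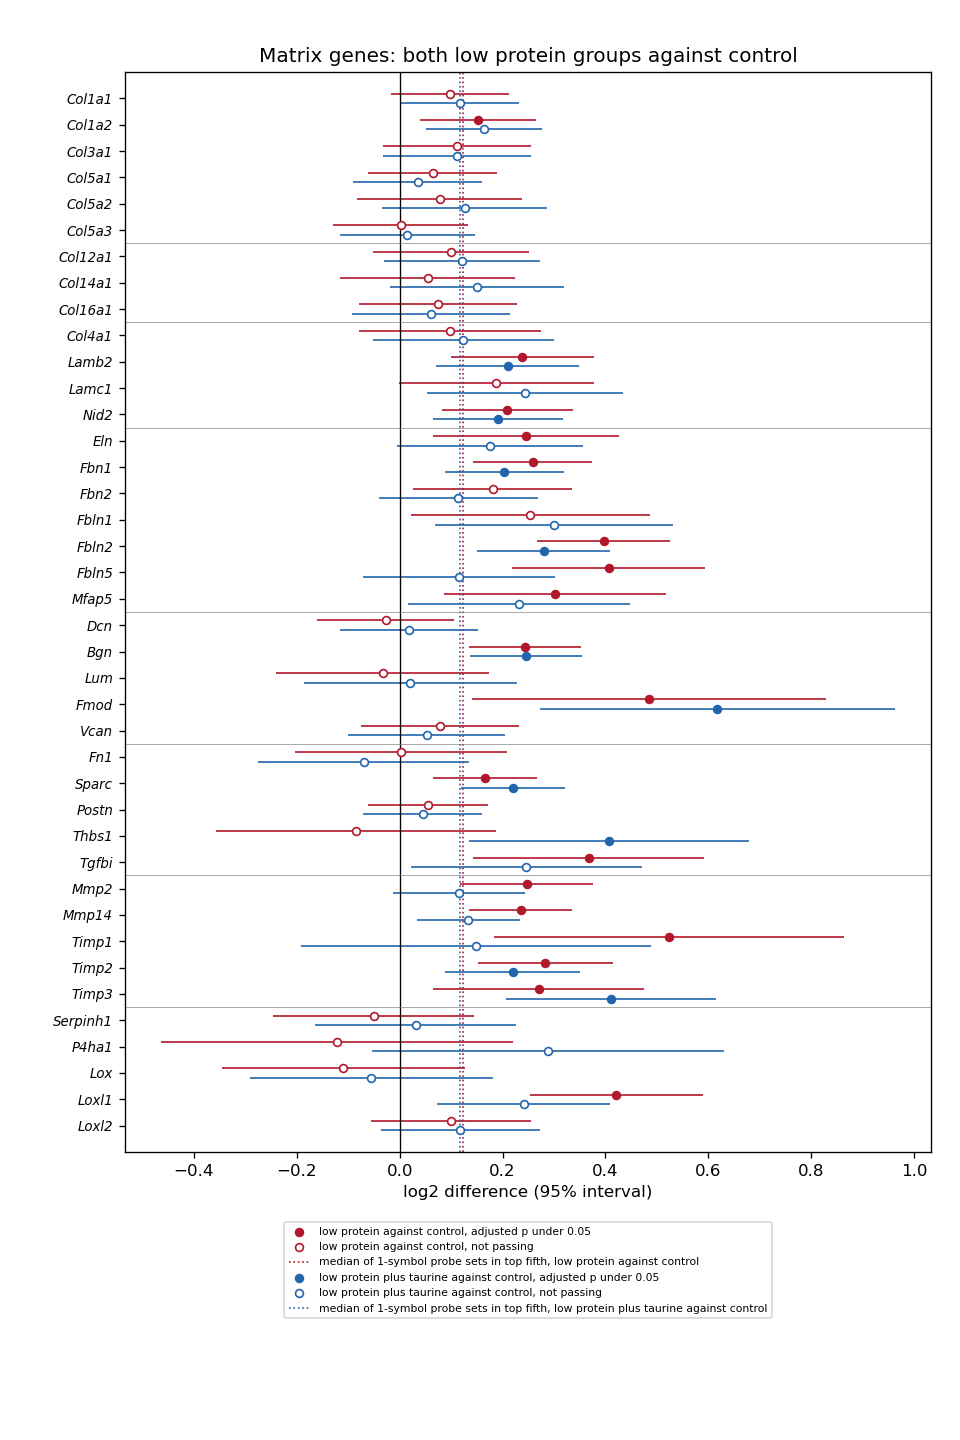
Log2 difference from control (x axis) for the 40 matrix genes (y axis, by role), for low protein and for low protein plus taurine, with 95% intervals; filled points have a limma adjusted p under 0.05 and the dotted line marks the median of probe sets with 1 symbol among the brightest 20%. Filled points lie to the right of 0 for 18 genes with low protein and for 10 with low protein plus taurine.

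Among the fibrillar collagens, the cables of the matrix, only Col1a2 passed, and only with low protein. Col1a2 (probe set 10853559), the alpha 2 chain of type I collagen, was at 11.95, 11.98, 11.94 and 11.81 in the control arrays, 12.07, 12.07, 12.03 and 12.13 with low protein, and 12.16, 12.08, 12.05 and 12.04 with added taurine. All 8 arrays of both low protein groups lay above all 4 controls. The low protein difference was 0.15 (SE 0.05; limma adjusted p = 0.0408), and that with added taurine was 0.16 (SE 0.05; adjusted p = 0.0533), just short of passing. Leaving out any of 8 single arrays ended the low protein call, among them control 1, 3 and 4 and each low protein array.

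Col1a1 (probe set 10737532), the partner chain that makes up most of the type I trimer, was at 12.35, 12.39, 12.29 and 12.20 in the controls, 12.36, 12.40, 12.38 and 12.47 with low protein, and 12.45, 12.47, 12.40 and 12.38 with added taurine. These groups overlapped with the controls, and the differences of 0.10 (adjusted p = 0.16) and 0.12 (adjusted p = 0.135) did not pass. Type III collagen, Col3a1, had differences of 0.11 and 0.11, and the type V chains Col5a1, Col5a2 and Col5a3, which set fibril width, had low protein differences of 0.06, 0.08 and 0.00. None of these passed.

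The fibril-associated collagens coat the fibrils and link them to other matrix. Col14a1 (probe set 10896558) was at 11.06, 11.07, 11.05 and 10.88 in the controls, 10.96, 11.18, 10.93 and 11.22 with low protein, and 11.22, 11.27, 11.11 and 11.08 with added taurine. The low protein arrays lay on both sides of the controls, while the taurine arrays were all above them. Neither difference passed, with 0.05 (adjusted p = 0.6) and 0.15 (adjusted p = 0.187). Col12a1 (probe set 10918869) was at 11.34, 11.30, 11.21 and 11.00 in the controls, 11.26, 11.38, 11.31 and 11.29 with low protein, and 11.35, 11.25, 11.41 and 11.33 with added taurine. Its groups overlapped throughout, with differences of 0.10 and 0.12, and Col16a1 gave 0.08 and 0.06.

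In the basement membrane, laminin beta 2 and nidogen 2 rose in both low protein groups. Lamb2 (probe set 10793140), a laminin chain concentrated at the neuromuscular synapse, was at 9.52, 9.65, 9.49 and 9.40 in the controls, 9.74, 9.76, 9.82 and 9.70 with low protein, and 9.79, 9.82, 9.64 and 9.66 with added taurine. All low protein arrays exceeded the highest control, and 1 of the taurine arrays fell just below it. The differences were 0.24 (SE 0.06; limma adjusted p = 0.0169) and 0.21 (SE 0.06; adjusted p = 0.0479).

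Nid2 (probe set 10782387), which bridges the laminin and collagen IV networks, was at 9.59, 9.73, 9.58 and 9.47 in the controls, 9.87, 9.80, 9.79 and 9.74 with low protein, and 9.84, 9.77, 9.78 and 9.73 with added taurine. All low protein arrays lay above the controls, and the lowest taurine array was barely above the highest control. It rose by 0.21 (SE 0.06; limma adjusted p = 0.0194) and by 0.19 (SE 0.06; adjusted p = 0.0484). For both genes the taurine call ended when any of 11 single arrays was left out, so it rests on the threshold. The low protein call held whichever single array was left out, but for each gene it was lost in 7 of 27 alternatives. The lowest low protein differences there were 0.07 for Lamb2 and 0.05 for Nid2. Lamc1, the common laminin gamma chain, had differences of 0.19 and 0.24, and Col4a1 of 0.10 and 0.12, and these did not pass.

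Elastic fibre proteins rose in 5 of 7 with low protein. Fibulin 2 and fibulin 5 are secreted glycoproteins that bind elastin and its microfibril scaffold, and Loxl1 is the lysyl oxidase that cross-links elastin. The proximal promoters of these 3 genes are shown because their low protein rises of 0.40 to 0.42 passed in at least 26 of 27 alternatives. Each window runs from 250 bases before to 50 after the RefSeq start in the rat build GRCr8, and is given 5′ to 3′ on the gene's strand, with matches to the motifs below in capitals. Fbln2 lies at chr4:125261409-125261708 on the plus strand, Fbln5 at chr6:126742657-126742956 on the minus strand and Loxl1 at chr8:67612175-67612474 on the minus strand.
Fbln2: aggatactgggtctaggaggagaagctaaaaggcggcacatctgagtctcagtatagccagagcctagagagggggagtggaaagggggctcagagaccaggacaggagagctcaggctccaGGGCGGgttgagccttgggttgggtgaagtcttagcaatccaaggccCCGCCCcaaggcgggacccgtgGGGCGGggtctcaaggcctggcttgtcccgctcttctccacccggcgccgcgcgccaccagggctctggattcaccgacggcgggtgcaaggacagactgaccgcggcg
Fbln5: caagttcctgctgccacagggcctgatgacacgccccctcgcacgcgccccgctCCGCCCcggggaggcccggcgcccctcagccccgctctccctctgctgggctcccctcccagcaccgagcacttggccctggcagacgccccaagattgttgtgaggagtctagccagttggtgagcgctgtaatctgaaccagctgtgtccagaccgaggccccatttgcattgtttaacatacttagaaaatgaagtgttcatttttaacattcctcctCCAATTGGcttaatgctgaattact
Loxl1: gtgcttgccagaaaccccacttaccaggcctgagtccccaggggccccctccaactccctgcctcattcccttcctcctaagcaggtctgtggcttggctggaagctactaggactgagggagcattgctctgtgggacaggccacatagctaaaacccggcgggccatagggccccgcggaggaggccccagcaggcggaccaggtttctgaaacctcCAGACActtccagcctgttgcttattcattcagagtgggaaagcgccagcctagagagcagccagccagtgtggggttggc
The motifs searched on both strands were the TATA box (spelled TATAAA), the element CCAAT, the GC box (spelled GGGCGG) and a SMAD element (spelled CAGACA). Fbln2 held 3 GC boxes, Fbln5 held 1 GC box and a pair of overlapping CCAAT matches on opposite strands, Loxl1 held 1 CAGACA, and none of these 3 windows held TATAAA. Of 33469 rat promoters of the same length, 14.2% held TATAAA, 37.5% CCAAT, 33.1% GGGCGG and 21.1% CAGACA. Of the 25 matrix genes with a promoter in the table, 2 held TATAAA, 10 CCAAT, 16 GGGCGG and 4 CAGACA. These are matches of letters only.

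Fbln2 (probe set 10857278) was at 9.10, 9.24, 9.13 and 9.08 in the controls, 9.62, 9.49, 9.49 and 9.53 with low protein, and 9.43, 9.50, 9.29 and 9.46 with added taurine. Every array of both low protein groups lay above every control. The rise was 0.40 with low protein (SE 0.06, 1.32-fold; limma adjusted p = 0.00419) and 0.28 with added taurine (SE 0.06; adjusted p = 0.017). No single array decided either call.

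Fbln5 (probe set 10891780) was at 9.56, 9.57, 9.77 and 9.65 in the controls, 9.93, 10.02, 10.09 and 10.15 with low protein, and 9.67, 9.56, 9.98 and 9.81 with added taurine. The low protein arrays lay above the controls, while the taurine arrays overlapped with both groups. It rose by 0.41 with low protein (SE 0.09, 1.33-fold; limma adjusted p = 0.00767), and the difference with added taurine was 0.12 (SE 0.09; adjusted p = 0.347). Fbln5 and Timp1 were added to the genes shown in full after their values had been seen.

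Fbn1 (probe set 10849327), fibrillin 1, the main microfibril protein, was at 10.91, 10.94, 10.93 and 10.82 in the controls, 11.19, 11.13, 11.06 and 11.24 with low protein, and 11.08, 11.08, 11.08 and 11.17 with added taurine. No array of a low protein group reached down to the controls. It rose by 0.26 (SE 0.05; limma adjusted p = 0.0071) and by 0.20 (SE 0.05; adjusted p = 0.0296), and the taurine call ended without control 1, 3 or 4 or without taurine array 1 or 4.

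Mfap5, a microfibril-associated glycoprotein, rose by 0.30 with low protein (adjusted p = 0.035), and Eln, elastin itself, by 0.25 (adjusted p = 0.0393). The call ended when 1 of 5 arrays was left out for Mfap5 and 1 of 6 for Eln. With added taurine their differences were 0.23 and 0.18 and did not pass. Fbn2, the fibrillin of developing tissue, had differences of 0.18 and 0.11, and Fbln1 of 0.25 and 0.30, without passing.

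Proteoglycans split. Biglycan (Bgn, probe set 10935890), a small leucine-rich proteoglycan that binds collagen and the dystrophin complex, was at 11.64, 11.62, 11.65 and 11.51 in the controls, 11.90, 11.79, 11.81 and 11.89 with low protein, and 11.87, 11.80, 11.87 and 11.86 with added taurine. The 8 low protein and taurine arrays lay together above the 4 controls. Bgn rose by 0.24 (SE 0.05; limma adjusted p = 0.00712) and 0.25 (SE 0.05; adjusted p = 0.0161), and no single array decided either call.

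Fibromodulin (Fmod, probe set 10764050), which steers collagen fibril assembly and is abundant in tendon, was at 8.30, 8.74, 8.57 and 8.32 in the controls, 8.85, 8.85, 8.83 and 9.34 with low protein, and 9.35, 9.06, 9.30 and 8.68 with added taurine. Low protein arrays were above the controls, though 3 of them only narrowly, and taurine array 4 fell among the controls. The rises were 0.48 (SE 0.16; limma adjusted p = 0.0348) and 0.62 (SE 0.16; adjusted p = 0.028), and they ended when 1 of 6 and 1 of 5 arrays was left out. Decorin (Dcn), lumican (Lum) and versican (Vcan), by contrast, had low protein differences of -0.03, -0.03 and 0.08 and did not pass. With arrays centred on their medians and control 4 left out, a setting chosen after seeing the data, Dcn fell by 0.17 and Lum by 0.22. In that setting 24.8% of all probe sets passed with low protein, and 23.9% of those calls were higher.

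Tendon markers were also higher in both low protein groups. The mean of the 3 measured tendon markers (Scx, Tnmd, Kera) lay between 8.50 and 8.75 in the controls, 8.84 and 9.00 with low protein, and 8.89 and 9.25 with added taurine. With low protein 3 of 3 rose (100%), and with added taurine 2 of 3 (66.7%). Of probe sets with 1 symbol above the median level 35.8% and 17.3% rose. Whether these markers followed Fmod or the matrix genes across arrays was not tested. The mean of 11 fibroblast markers lay between 8.92 and 9.04, 9.13 and 9.17, and 9.11 and 9.19, and 3 and 2 of them rose, shares of 27.3% and 18.2% that lie below and near the 35.8% and 17.3% of probe sets with 1 symbol above the median level. That of 8 endothelial markers lay between 8.70 and 8.91, 8.99 and 9.04, and 8.85 and 9.04, and 5 and 1 rose (62.5% and 12.5%). Their part in the matrix differences was not tested. In whole muscle, a change in the number of a cell type and in the RNA per cell cannot be told apart.

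The other marker counts are read beside all probe sets, of which 21.8% rose and 11.9% fell with low protein. With added taurine 10.2% rose and 3.6% fell. Of the cartilage markers 0 of 9 rose, and 1 fell with low protein (11.1%) and 2 with added taurine (22.2%). Bone markers rose in 1 of 6 and 0 of 6, smooth muscle markers in 1 of 5 in each, and macrophage markers in 0 of 7. Schwann cell markers rose in 0 of 3. Of 5 erythroid markers 1 fell with low protein, and their median difference was -0.51 with low protein and -0.32 with added taurine. Control 3 and control 4, which held the hepatocyte signal, had the highest erythroid means of all arrays, at 9.38 and 10.20. Control 1 was at 8.50 and control 2 at 8.74. Low protein arrays ran from 8.45 to 8.61, and taurine arrays from 8.62 to 9.25. Erythroid differences without control 3 and control 4 were not tested. Adipocyte markers passed in 0 of 6 in each comparison. Their median difference from control was 0.46 with low protein (5 of 6 above 0) and -0.39 with added taurine (6 of 6 below 0). For taurine against low protein the median difference was -0.87 (6 of 6 below 0). The mean of the adipocyte markers lay between 7.65 and 8.48 in the controls, 7.65 and 9.31 with low protein, and 6.96 and 7.90 with added taurine, so the groups overlapped. The part of these markers in the matrix differences was not tested.

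Among the matricellular glycoproteins, Sparc rose in both groups. Sparc (probe set 10742802), a collagen-binding glycoprotein, was at 12.65, 12.60, 12.59 and 12.52 in the controls, 12.80, 12.72, 12.74 and 12.75 with low protein, and 12.86, 12.77, 12.81 and 12.79 with added taurine. The controls were the 4 lowest arrays. It rose by 0.17 (SE 0.05; limma adjusted p = 0.0199) and 0.22 (SE 0.05; adjusted p = 0.0169), the latter not without taurine array 1.

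Thbs1 (probe set 10940627), thrombospondin 1, which binds and activates latent TGF-beta, was at 10.08, 10.21, 9.82 and 9.78 in the controls, 9.94, 10.00, 9.74 and 9.87 with low protein, and 10.44, 10.72, 10.20 and 10.16 with added taurine. Low protein and control arrays overlapped, and taurine arrays 1 and 2 stood highest. It differed by -0.09 with low protein (adjusted p = 0.608) and rose by 0.41 with added taurine (SE 0.13; limma adjusted p = 0.0494), a call that ended without any 1 of 10 arrays.

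Tgfbi, a TGF-beta-induced adhesion protein, rose by 0.37 with low protein (SE 0.10; limma adjusted p = 0.0199) and differed by 0.25 with added taurine (adjusted p = 0.113). Its low protein difference ran from 0.24 to 0.54 over the 27 alternatives. Periostin (Postn) differed by 0.05 and 0.04, and Fn1 by 0.00 and -0.07, with control SDs of 0.09 and 0.24. Neither passed. Thbs2, a close relative of Thbs1, has a probe set (10718217) named only in the authors' deposited table, where it was chosen for its low protein change, so it is a description only. Its log2 levels were 10.24 ± 0.07, 10.58 ± 0.05 and 10.45 ± 0.02 (SD, n = 4) with control, low protein and low protein plus taurine.

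All 5 proteases and inhibitors rose with low protein. Mmp14 (probe set 10780205), the membrane-anchored collagenase that activates Mmp2, was at 9.36, 9.41, 9.45 and 9.40 in the controls, 9.58, 9.63, 9.68 and 9.67 with low protein, and 9.55, 9.59, 9.52 and 9.49 with added taurine. By mean the order was control, taurine and low protein, and the controls did not overlap with either. It rose by 0.24 with low protein (SE 0.05; limma adjusted p = 0.0063), and the difference with added taurine was 0.13 (SE 0.05; adjusted p = 0.0687).

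Timp2 (probe set 10749484), which inhibits Mmp2 and also helps Mmp14 to activate it, was at 10.13, 10.26, 10.12 and 10.00 in the controls, 10.40, 10.31, 10.41 and 10.50 with low protein, and 10.38, 10.36, 10.32 and 10.32 with added taurine. Both low protein groups lay wholly above the controls. It rose by 0.28 (SE 0.06; limma adjusted p = 0.00768) and by 0.22 (SE 0.06; adjusted p = 0.0345), the latter ending without any 1 of 7 arrays.

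Timp1 (probe set 10936482), an inducible inhibitor, had the largest low protein difference among the 40 genes, with a control SD of 0.28. It was at 9.61, 8.95, 9.32 and 9.17 in the controls, 9.73, 9.66, 9.81 and 9.93 with low protein, and 9.35, 8.98, 9.60 and 9.71 with added taurine. Low protein arrays lay above the controls, and the taurine arrays spanned both. Timp1 rose by 0.52 with low protein (SE 0.16, 1.44-fold; limma adjusted p = 0.0251), though not without control 2, low protein 3 or low protein 4, and the difference with added taurine was 0.15 (adjusted p = 0.515).

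Mmp2, gelatinase A, rose by 0.25 with low protein (SE 0.06; limma adjusted p = 0.0112) and differed by 0.12 with added taurine (adjusted p = 0.181). Timp3, the inhibitor that stays bound to matrix, rose by 0.27 (SE 0.09; adjusted p = 0.0437) and 0.41 (SE 0.09; adjusted p = 0.0204). The low protein call for Timp3 ended when 1 of 8 arrays was left out.

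Of the folding and cross-linking enzymes, Loxl1 alone passed. Loxl1 (probe set 10917883), the gene of the third promoter above, was at 9.79, 9.74, 9.86 and 9.69 in the controls, 10.18, 10.17, 10.07 and 10.33 with low protein, and 9.94, 9.86, 10.21 and 10.02 with added taurine. Low protein arrays were all above the controls, and taurine array 2 was barely above the highest control. It rose by 0.42 with low protein (SE 0.08, 1.34-fold; limma adjusted p = 0.00539), and the difference with added taurine was 0.24 (SE 0.08; adjusted p = 0.0558).

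P4ha1 (probe set 10931308), a catalytic subunit of the prolyl 4-hydroxylase that stabilises the collagen helix, was at 9.14, 9.17, 8.81 and 8.79 in the controls, 8.83, 9.06, 8.69 and 8.85 with low protein, and 9.50, 9.65, 8.92 and 9.00 with added taurine. Taurine arrays 1 and 2 stood above all others, and the remaining arrays overlapped. The differences of -0.12 (adjusted p = 0.558) and 0.29 (adjusted p = 0.205) did not pass. Lox, the main lysyl oxidase, had -0.11 and -0.05, Loxl2 0.10 and 0.12, and Serpinh1, the collagen chaperone, -0.05 and 0.03, none passing, though Lox fell by 0.29 with arrays centred and control 4 left out. That setting was chosen after seeing the data, and 23.9% of its low protein calls over all probe sets were higher.

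**Figure D3:**
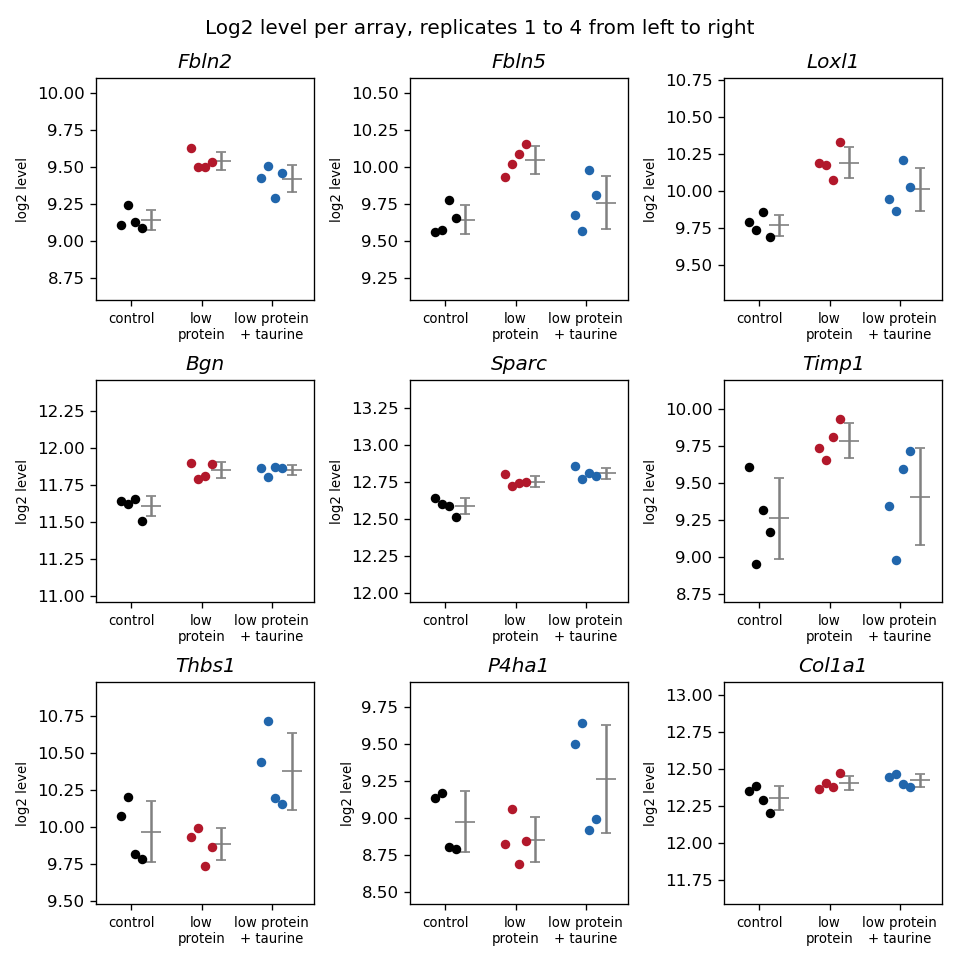
Log2 level (y axis) on each array, by diet (x axis), for 9 matrix genes, with the mean and SD of the 4 arrays. The low protein points of Fbln2, Fbln5, Loxl1, Bgn, Sparc and Timp1 lie above all control points, and the taurine points of Thbs1 lie above all low protein points.

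The low protein calls were then set against other processing. Each count is set beside the share of probe sets with 1 symbol above the median level that rose in the same setting. With quantile normalization 8 of the 40 genes (20%) rose, against 7.41%. With arrays centred on their medians 7 rose (17.5%), against 12.6%. With cyclic loess 5 rose (12.5%), namely Fbn1, Fbln2, Bgn, Sparc and Loxl1, against 3.11%. Without control 3 and control 4, 9 rose (22.5%), against 17.1%, a share near that background: Fbn1, Fbln2, Fbln5, Bgn, Tgfbi, Mmp2, Mmp14, Timp2 and Loxl1. Bgn, Fbln2, Fbn1 and Loxl1 passed under each of these 4 settings. With added taurine, 2 genes rose under quantile normalization (Bgn, Sparc; 5% against 2.56%) and 4 with centred arrays (Fbln2, Bgn, Fmod, Timp3; 10% against 5.19%). Under cyclic loess 2 rose (Bgn, Sparc; 5% against 1.23%), and without control 3 and 4 only Tgfbi did (2.5% against 3.11%). The replicate number as a block left 16 low protein calls (40% against 30.5%) and 6 taurine calls (15% against 12.7%).

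**Figure D4:**
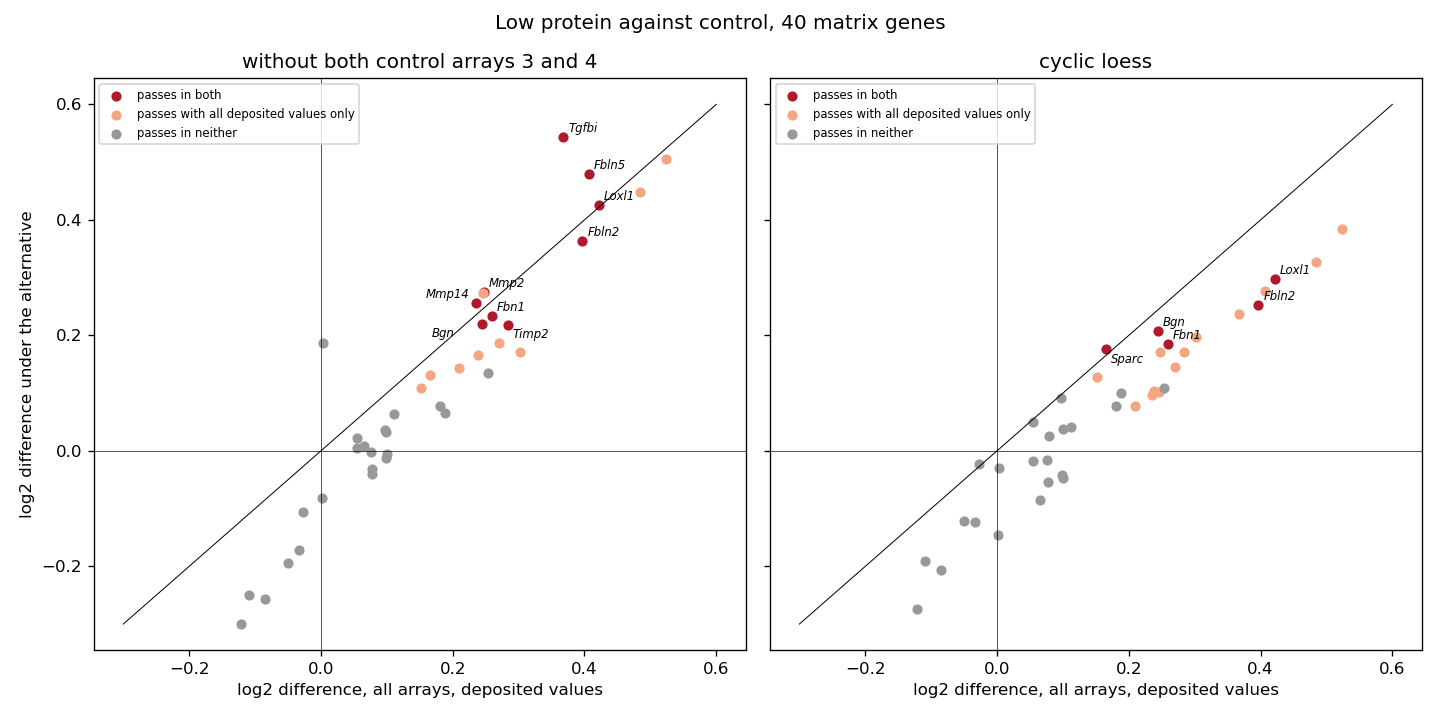
Low protein minus control difference (log2) of each of the 40 matrix genes, with all arrays and the deposited scaling (x axis) against the value without control 3 and control 4 or under cyclic loess (y axes). Most points lie below the diagonal in both panels, and Fbln2, Fbln5 and Loxl1 keep values of at least 0.25.

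Taurine added to the low protein diet was compared with the low protein diet alone. No matrix gene passed (limma, 0 of 40), and no probe set did among 18957, which is 0% of the table, with a smallest adjusted p of 0.347. At an unadjusted p under 0.05 there were 7 of the 40 genes, against 10.8% of all probe sets. The median matrix gene differed by 0.00, and the 95% intervals reached 0.155 to either side of the difference for the median gene. For 1 gene, Thbs1, all taurine arrays lay above all low protein arrays, as in 3.35% of all probe sets.

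The 6 genes with the smallest p values, none of which passed, fell into both directions. Thbs1 was higher with taurine by 0.49 (95% interval 0.22 to 0.76; limma adjusted p = 0.347) and P4ha1 by 0.41 (0.07 to 0.75; adjusted p = 0.419). Without taurine arrays 1 and 2 these differences were 0.29 and 0.10. Fbln5 differed by -0.29 (-0.48 to -0.10; adjusted p = 0.363), Timp1 by -0.38 (-0.72 to -0.04; adjusted p = 0.435), Loxl1 by -0.18 (-0.35 to -0.01; adjusted p = 0.443) and Mmp2 by -0.13 (adjusted p = 0.459). Among elastic fibre genes 6 of 7 differences were below 0 (median -0.07), and among proteases and inhibitors 4 of 5 (median -0.10). The median over probe sets with 1 symbol above the median level was also below 0, at -0.02. A difference between the low protein groups was thus not shown for any gene, including those that passed against control in only 1 of them.

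**Figure D5:**
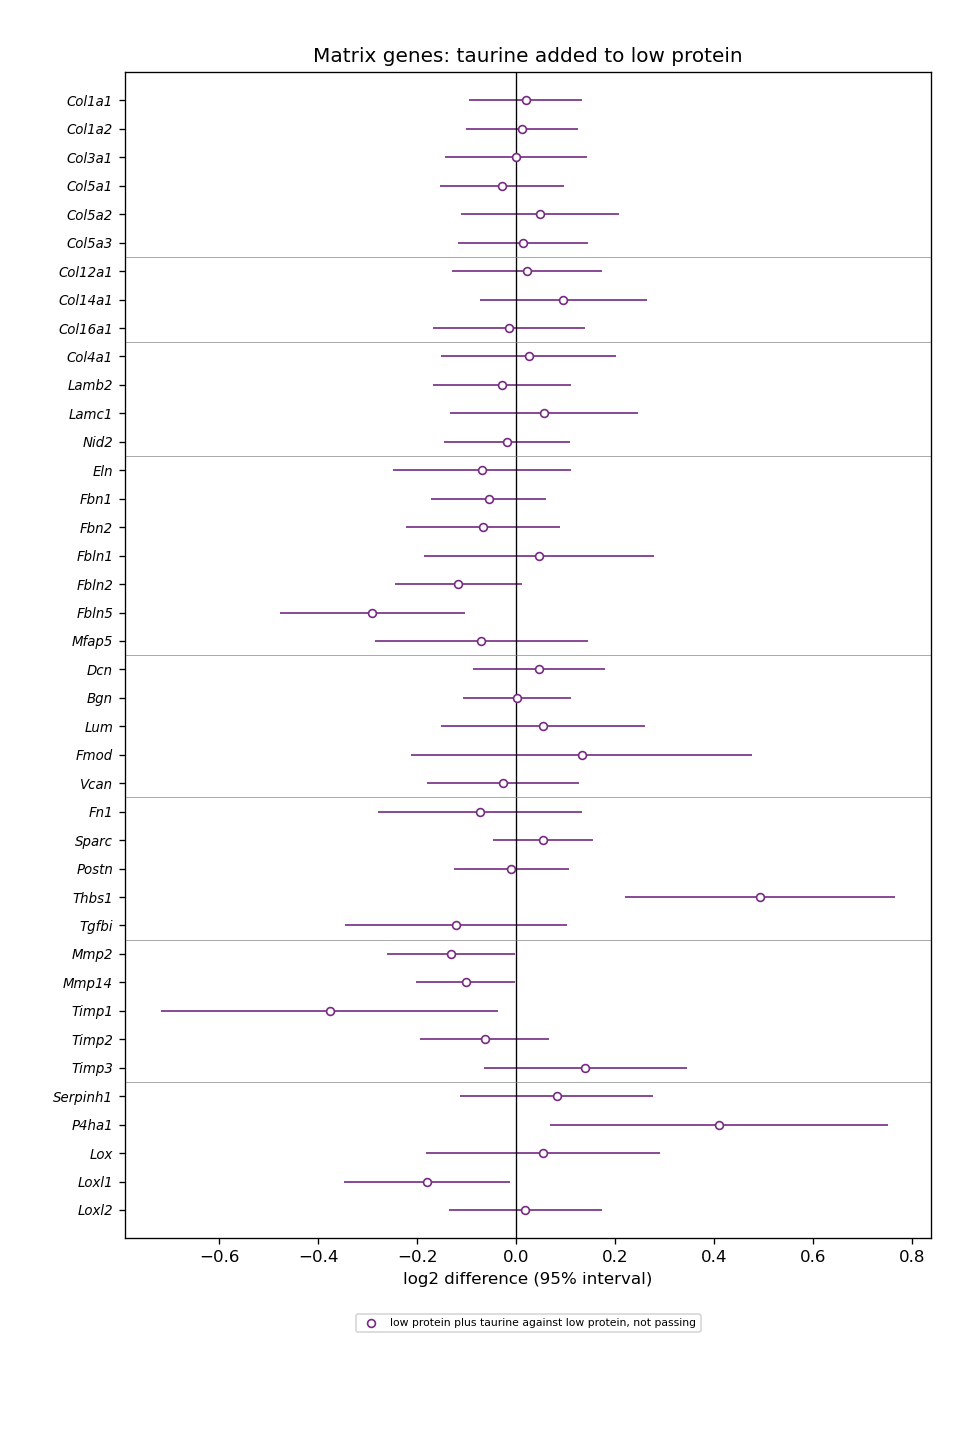
Log2 difference of low protein plus taurine from low protein (x axis) with 95% intervals for the 40 matrix genes (y axis, by role). Thbs1 at 0.49 and P4ha1 at 0.41 lie farthest to the right and Timp1 at -0.38 and Fbln5 at -0.29 farthest to the left; no gene passed the adjusted threshold.

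The authors' deposited table for low protein holds 895 probe sets, where 18957 were detected in all. It holds 4 of the 40 genes, all with a ratio above 1: Fmod at 1.40, Loxl1 at 1.34, Fbln5 at 1.33 and Fbln2 at 1.32. In the authors' deposited table Fbln5 is marked as fully rescued by taurine, and Fbln2 and Loxl1 as partly rescued. The authors' deposited p values for low protein against added taurine were 0.004, 0.034 and 0.047 for Fbln5, Fbln2 and Loxl1. In the fit used here the taurine minus low protein differences of these 3 genes were -0.29, -0.12 and -0.18. Their unadjusted limma p values were 0.0053, 0.073 and 0.038, and none passed after adjustment over 18957 probe sets. The authors' larger deposited table holds 1318 probe sets, again with 18957 detected in all. Of the 40 genes it holds 5, the same 4 and Thbs1.

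Related genes outside the 40 were counted from lists by pathway, with 0 falling in either comparison with control. Their counts are read beside the 35.8% and 17.3% of probe sets with 1 symbol above the median level that rose with low protein and with added taurine. Only 0.728% and 0.273% of those fell, so the absence of falls is near that background. Of 18 measured enzymes that process collagen, 10 rose with low protein (55.6%) and 6 with added taurine (33.3%). Plod1, a lysyl hydroxylase, rose by 0.35 (limma adjusted p = 0.00534) and 0.26 (adjusted p = 0.0261), and Pcolce, which speeds removal of the procollagen C-propeptide, by 0.25 (adjusted p = 0.0111) and 0.25 (adjusted p = 0.0225). Of 15 genes of TGF-beta signalling, the pathway that drives much matrix synthesis, 8 and 7 rose (53.3% and 46.7%). The ligand Tgfb3 rose by 0.44 (adjusted p = 0.00419) and 0.28 (adjusted p = 0.0225), and Ltbp1, which tethers latent TGF-beta to microfibrils, by 0.33 (adjusted p = 0.00455) and 0.29 (adjusted p = 0.0123).

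Of 15 other matrix proteases and inhibitors, 9 and 5 rose (60% and 33.3%). Plat, tissue plasminogen activator, rose by 0.30 (limma adjusted p = 0.00527) and 0.29 (adjusted p = 0.0133), and the versican-cutting protease Adamts5 by 0.34 (adjusted p = 0.015) and 0.42 (adjusted p = 0.0174). Of 14 matrix receptors, 5 and 4 rose (35.7% and 28.6%), the first share at that background. Alpha-sarcoglycan (Sgca), of the dystrophin complex, rose by 0.39 (adjusted p = 0.00918) and 0.36 (adjusted p = 0.0238), while the collagen receptor subunit Itga11 differed by 0.03 with low protein and rose by 0.26 with added taurine (adjusted p = 0.0314). Of 18 other matrix proteins, 6 and 2 rose (33.3% and 11.1%), both shares near or below it. Cilp, a cartilage intermediate layer protein also made in muscle connective tissue, rose by 0.57 (adjusted p = 0.00417) and 0.66 (adjusted p = 0.00781), and agrin (Agrn), the organiser of the neuromuscular synapse, rose by 0.30 with low protein (adjusted p = 0.00562) and differed by 0.17 with added taurine (adjusted p = 0.0592).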

How the data were processed

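Newborn rat muscle RNA was hybridised to Affymetrix arrays, and RMA with R 3.2.2 is named for them per the submitters' processing notes, with no genome or chip build. The values deposited are on a log2 scale, 1 per probe set, and the authors kept 18957 detected probe sets of 29214, per the deposited descriptions. The authors' deposited tables also hold p-values, group means on the linear intensity scale and the ratio of those means.

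Groups came from the labels. All 12 arrays entered 1 limma 3.58.1 fit (R 4.3.3) with 3 group means and eBayes, on the deposited log2 values without further transformation, two-sided, with Benjamini-Hochberg adjustment over 18957 probe sets and a threshold of 0.05. Intervals are 95% intervals from this fit. The platform annotation gave the symbols: 11721 probe sets had 1, 141 had several and 7095 had none listed. Each of the 40 genes had 1 probe set, so choosing or averaging probe sets could not differ. The genes and lists were chosen with earlier results of these data known.

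Genes past the threshold were named (up to 24 in a comparison by smallest p, or the 6 smallest where fewer than 6 passed), with all arrays given for the 2 smallest F-test p values per role, and 2 genes per pathway list by the same p. Same-number arrays come from different dams, and their deviations were correlated above 0.1 in 3 of 12 pairs, so numbers were not taken as pairs. On data simulated for low protein against control with 18957 probe sets, repeated 20 times, the fit recovered 75% to 84% of log2 changes of size 0.5 and 93% to 100% of size 1, with 3 to 15 false calls. Only 200 probe sets were changed there, with independent noise. Most rises of the 40 genes were smaller than 0.5, and recovery of such sizes was not tested. The shift over the whole table and the hepatocyte signal were not simulated. Promoters are RefSeq sequences of GRCr8, found for 25 of the 40 genes. Other scalings, filters, thresholds, a block, array weights and leaving out arrays were tried as alternatives. Scan dates were not given, and the number of arrays limits the precision.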

Additional observations from a re-analysis of the deposited data

Results flagged for a closer look

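Single arrays stood far from the other 3 of their group in 9 of 123 groups of 4 arrays, by a gap test that chance passes in about 1 of 20 groups. Control 4 was low for Col3a1 at 10.93 (others 11.08 to 11.11), for Col14a1 at 10.88 (11.05 to 11.07) and for Loxl2 at 9.02 (9.23 to 9.27). Control 3 was high for Eln at 9.34 (9.19 to 9.21). Low protein 1 was high for Mfap5 at 10.82 (10.49 to 10.54), and low protein 4 for Fmod at 9.34 (8.83 to 8.85). Taurine array 4 was low for Col4a1 at 9.33 (9.56 to 9.60) and high for Fbn1 at 11.17 (11.08 to 11.08), and taurine array 1 was high for Dcn at 12.67 (12.60 to 12.61). All are log2 levels.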

How the results depend on the processing

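Counts of genes past the threshold among the 40 depended on the scaling and on the control arrays. For low protein against control (18 genes; median difference 0.159), quantile normalization gave 8, median centring 7 (median 0.0777), cyclic loess 5 (0.0839), an adjusted p of 0.01 gave 7, and leaving out control 3 and control 4 gave 9 (0.0929). For low protein plus taurine against control (10 genes; median 0.14), only the groups compared gave 6, quantile normalization 2, median centring 4 (0.0788), cyclic loess 2 (0.0519), an adjusted p of 0.01 gave 0, without control 3 and control 4 gave 1, and without taurine arrays 1 and 2 gave 2 (Bgn, Loxl1). At 0.01, 9.56% (low protein) and 0.82% (added taurine) of probe sets with 1 symbol above the median level rose. With added taurine, 8.04% of these rose with only the groups compared and 7.47% without taurine arrays 1 and 2. Of all calls in the table, 64.6% were higher with low protein, but 51.1%, 29.4% and 36.9% under quantile normalization, median centring and cyclic loess; with added taurine these were 73.9%, 46.1%, 32.9% and 29.3%. The cause was not tested.

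With single arrays left out in turn, low protein calls ranged from 13 to 18 and taurine calls from 2 to 12, with 4 without control 1, 3 without control 3, 4 without control 4, 2 without taurine 1, 6 without taurine 3 and 5 without taurine 4. The share of probe sets with 1 symbol above the median level that rose also moved. It ranged from 21.7% to 37.8% for low protein and from 3.96% to 19.4% with added taurine. For low protein, 12 of 18 genes kept their call whichever array was left out, and with added taurine Bgn and Fbln2 did. Medians ranged from 0.116 to 0.174 and from 0.118 to 0.166. With the replicate number as a block, 16 and 6 genes passed (40% and 15%), against 30.5% and 12.7% of probe sets with 1 symbol above the median level.

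A pair of alternatives were chosen after seeing the data. Cyclic loess without control 3 and control 4 gave 4 low protein calls (median 0.0463) and 0 taurine calls (0.054). The 4 were all higher (10%), against 2.19% of probe sets with 1 symbol above the median level. Median centring without control replicate 4 gave 8 low protein calls (0.035), of which 5 were higher and 3 were lower, namely Dcn (-0.17), Lum (-0.22) and Lox (-0.29), and 0 taurine calls (0.0572). In that setting 24.8% of all probe sets passed with low protein, and 23.9% of those calls were higher. Loxl1 passed against control with low protein in 27 of 27 alternatives, and Fbln2, Bgn and Fbln5 in 26 of 27. The looser adjusted p of 0.1 could not end a call. Leaving out only taurine arrays changed the estimate of spread but not the low protein differences. For taurine against low protein 0 genes of the 40 passed in any alternative run, and over all probe sets at most 2 did. Averaging probe sets of a gene was not run, as each gene had 1.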
